A study of Homo sapiens with 4 samples.

Results

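The genes described here are those for the proteins of the cytosolic ribosome, named RPL for the large and RPS for the small subunit. A gene was taken where the platform annotation gave its symbol, and no other, to at least 1 probe set. The symbol had to be RPL or RPS with a number and at most an A, L, X or L1 ending, or RPSA, RPLP0, RPLP1 or RPLP2. Kinases of the RPS6K family, pseudogenes, Y-linked copies and mitochondrial ribosomal proteins were left out. This gave 59 of the 19740 genes on the array, 38 of the large and 21 of the small subunit, with 120 probe sets between them. Each gene was read from the probe set with the highest mean log2 signal over the 4 arrays. RPSA and RPLP0 are not among the 59, because neither had a probe set with a single symbol.

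Human lung adenocarcinoma cells of the lines CL1-0 and CL1-5 were profiled on Affymetrix arrays, with 1 array for each of 4 groups. CL1-5 is a more invasive line obtained from CL1-0. The CL1-0 cells carried either a control vector or a vector expressing PSAT1, the phosphoserine aminotransferase of serine synthesis, and the CL1-5 cells carried either a non-silencing short hairpin RNA or a hairpin against PSAT1. In all 4 groups the cells had been stably transduced and kept in puromycin for 2 weeks, and the labelled RNA was made from 6 ug of total RNA. No group had a replicate, so no test, p-value or error could be computed, and culture, selection and labelling differ between any 2 arrays together with the construct. Ratios are log2 ratios of signals raised to a floor of 49.0 where they were below it. "Higher", "lower", "rose" and "fell" are used only for a difference of 2-fold or more, which is a rule of size. A second, smaller threshold for these abundant transcripts, called the 25% threshold, was passed where the larger of 2 signals exceeded the smaller by at least 25%.

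The cytosolic ribosome joins amino acids in the order an mRNA sets. Its proteins are mostly needed in equal numbers, and their mRNAs are among the most abundant of any dividing cell. Nearly all of these mRNAs begin with a C followed by a run of pyrimidines, the 5′ terminal oligopyrimidine (TOP) tract, through which the mTORC1 kinase complex and LARP1 adjust their translation together. A few genes have a second copy, a paralog, with its own promoter and a more restricted pattern of expression. Serine, the product of the pathway in which PSAT1 acts, is among the amino acids that translation consumes.

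The annotated starts of these genes were read from the RefSeq promoter table (GRCh38.p14), which held 51 of the 59 genes. RPL23A, RPL30, RPL37, RPL39L, RPL3L, RPL7, RPL8 and RPS15A were not found in it. A tract was counted where the start base was a C that opened a run of at least 5 bases on the gene's strand, each a C or a T. Of the 51 genes, 35 (68.6%) had such a start, against 1404 of all 27305 genes of the table (5.14%). With the run allowed to begin within 5 bases of the start, the shares were 74.5% and 18.8%. Among the 5 L or L1 paralogs with an entry, only RPL22L1 had the tract. The following windows hold 15 bases before and 15 from the start, with the tract in capitals. They show RPS6 and RPL41 as typical genes, then 2 paralogs that stand apart in the expression values next to the genes they copy, and last RPL7L1 as a further paralog without a tract.
RPS6, small subunit, chr9:19380222-19380251, minus strand: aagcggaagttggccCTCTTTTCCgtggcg
RPL41, large subunit, chr12:56116618-56116647, plus strand: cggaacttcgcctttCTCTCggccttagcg
RPL22, large subunit, chr1:6199581-6199610, minus strand: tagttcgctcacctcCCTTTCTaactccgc
RPL22L1, paralog of RPL22, chr3:170870181-170870210, minus strand: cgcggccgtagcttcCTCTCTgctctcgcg
RPS27, small subunit, chr1:153990747-153990776, plus strand: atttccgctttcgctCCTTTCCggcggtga
RPS27L, paralog of RPS27, chr15:63157463-63157492, minus strand: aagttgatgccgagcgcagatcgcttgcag
RPL7L1, paralog of RPL7, chr6:42879601-42879630, plus strand: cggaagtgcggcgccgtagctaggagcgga
RPL22 and RPL22L1 both open with a tract, of 7 and 6 bases, whereas RPS27 has a tract of 7 bases and RPS27L has none. The 59 genes lie on 19 chromosomes, with at most 7 on any one.

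PSAT1 itself followed its labels in CL1-5. At its brighter probe set the signal was 4214 with the vector and 5494 with the PSAT1 vector in CL1-0, and 1760 with the non-silencing hairpin and 143 with the PSAT1 hairpin in CL1-5. The hairpin array was thus 12.3-fold lower, while the CL1-0 arrays differed by a log2 ratio of 0.38, below 2-fold. The second probe set gave 0.10 in CL1-0 and -1.84 in CL1-5. Whether these probe sets cover the sequence in the PSAT1 vector was not checked.

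The labels call the cells type II alveolar. Of 9 type II markers with a probe set, SFTPD and SLC34A2 were at or below the floor on all arrays, and the summed signal of the 9 lay between 1224 and 1635. SFTPC, the defining surfactant gene, gave 131 to 151. Of the 8 epithelial markers 3 to 5 were above the floor, and their summed signal was 1121 and 878 on the CL1-0 arrays and 7019 and 7730 on the CL1-5 arrays. EPCAM, CDH1 and KRT19 were at or below the floor on all arrays, whereas KRT18 gave 757, 635, 5308 and 5657 and KRT8 gave 77.8, 60.4, 1271 and 1675. Of the 8 fibroblast markers 2 to 4 were above the floor, and of the 5 immune and endothelial markers 1 or 2. PTPRC, CD3E and CDH5 were below the floor on every array. PECAM1 was above it on every array, with 69.9, 54.3, 150 and 105, and VWF on the CL1-5 arrays only, with 50.8 and 55.8. Of the fibroblast markers COL1A1 gave 221 to 288 and THY1 gave 60.2 to 85.3, above the floor on every array. PDGFRB was above it on the CL1-0 arrays only, and COL3A1 on the vector array only, with 312.

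The family lay near the top of the signal scale. On the CL1-0 arrays with vector and with PSAT1 the members' signals had medians of 19024 and 19040, and 49 of the 59 were at or above 10000 on each. On the CL1-5 arrays with the non-silencing and the PSAT1 hairpin the medians were 14925 and 14504, and 46 were at or above 10000 on each. Over the whole array, 0.759%, 0.708%, 0.490% and 0.472% of probe sets reached that signal, in the same order. The probe set of RPL41, a very short basic protein of the large subunit, gave 25524, 25814, 23735 and 23897, and on both CL1-0 arrays no probe set of any kind gave a larger signal.

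**Figure D1:**
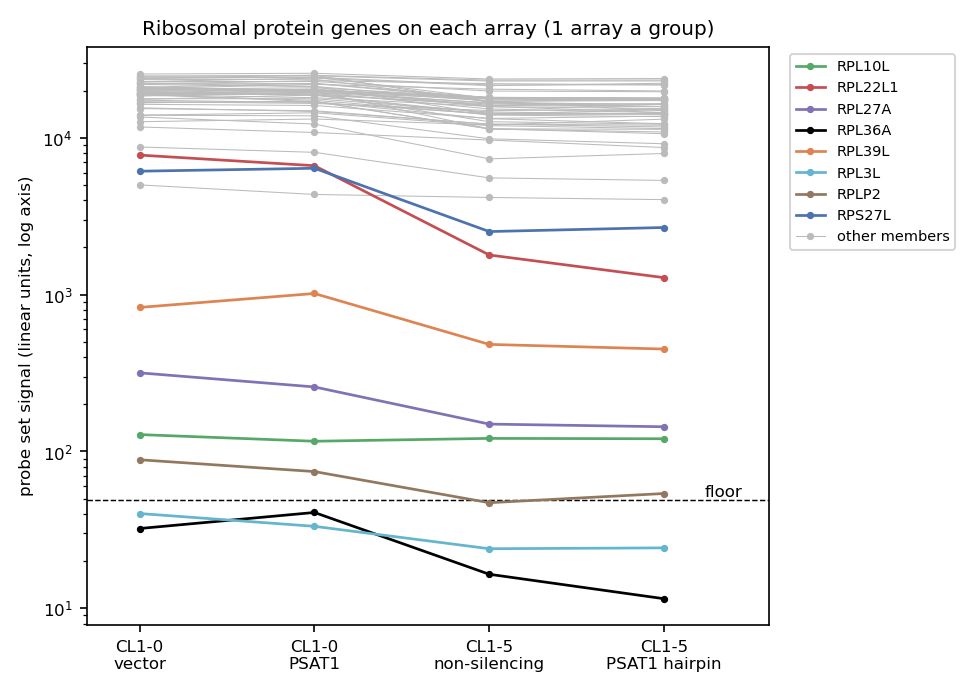
Signal of the 59 ribosomal protein genes (linear units on a log axis) on the 4 arrays, 1 array a group, with each line 1 gene and the dashed line the floor of 49.0. Most genes run in a dense band above 10000 that is nearly flat within each line, while RPL22L1 and RPS27L step down between the CL1-0 and the CL1-5 arrays.

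Of the 59 genes, 57 were measured in each pair of arrays, meaning that at least 1 array was above the floor. RPL3L, a paralog of RPL3 made mainly in heart and skeletal muscle, gave 40.2, 33.3, 24.0 and 24.3 and was below the floor throughout. RPL36A gave 32.3, 40.8, 16.5 and 11.5 at its single-symbol probe set and was likewise not measured. The RPLP2 probe set, 88.6, 74.5, 47.1 and 54.0, was close to the floor. Values so near the floor give no level for these mRNAs. The probe sets that carry a ribosomal protein symbol beside another symbol, 65 in number and 56 of them with a small nucleolar RNA of an intron, name no gene here.

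With PSAT1 in CL1-0, none of the 57 genes was 2-fold higher or lower than with the vector, where 2.56% of all measured genes were higher and 1.01% lower. None passed the 25% threshold, which 20.2% of all measured genes passed upwards and 14.9% downwards. The median log2 ratio was 0.00, with 28 genes above 0, 28 below it and 1 identical. The ratios ran from -0.30 to 0.29, and their SD, estimated from the median absolute deviation, was 0.08 against 0.33 over all measured genes. Over the 258 other genes with a signal of at least 5000 on every array the SD was 0.14 and the median -0.06. Over the 50 members above that signal the SD was 0.08 and the median 0.00. The 258 were not matched to the members in signal beyond that limit. By mean signal, the brighter 25 of the 50 members had an SD of 0.05 and the dimmer 25 one of 0.09. The part of signal in the spread was not tested.

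At the ends of this narrow range stood the dimmer probe sets. RPL39L, a paralog of RPL39 known from testis, gave 829 with the vector and 1018 with PSAT1, a log2 ratio of 0.29. RPL27A, a protein of the large subunit, gave 317 and 258, or -0.30, and RPLP2, of the stalk, -0.25. RPL22L1 and RPL26L1, paralogs of RPL22 and RPL26, followed with -0.22 and -0.20. Of the genes with strong signals RPL14 had the most negative ratio, -0.16, with 19027 and 17013. RPL9 was at the other end, with 17596 and 18752 and a ratio of 0.09. RPL31, which lines the rim of the exit tunnel, had the same deposited value on both CL1-0 arrays, 17774.5. Equal values at the same probe set occurred 1260 times between these arrays over the whole table.

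In CL1-0 the median was -0.04 over the large-subunit genes and 0.00 over the small-subunit genes, whose ratios spanned -0.08 to 0.09. The large minus small difference of -0.04 became -0.18 without _x_at and _s_at probe sets, the kinds that can detect related transcripts. At the stalk, which recruits the elongation factors, RPLP1 gave 23994 and 25066, a ratio of 0.06. RPL11, which with RPL5 and the 5S rRNA forms a particle that can also bind MDM2, had a ratio of -0.08. Around the exit tunnel RPL19, RPL23A, RPL31, RPL35 and RPL39 lay between -0.12 and 0.08. RPS6, the substrate of the S6 kinases, gave 18880 and 18033, or -0.07. Of a chosen list of 11 genes mutated in Diamond-Blackfan anaemia, an inherited failure of red cell production, the 6 measured had a median of -0.01.

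With the PSAT1 hairpin in CL1-5, again none of the 57 genes differed by 2-fold, where 0.398% of all measured genes were higher and 0.421% lower. None passed the 25% threshold upwards and 1 passed it downwards, against 7.3% and 8.22% of all measured genes. That gene was RPL22L1, with 1791 on the non-silencing and 1284 on the hairpin array, a log2 ratio of -0.48. RPL22, the gene it copies, gave 13300 and 13763, or 0.05. The ratio of RPL22 was small beside the spread of single ratios of 0.19 over all genes. Its other probe sets gave between -0.11 and 0.12, so its sign depended on the probe set. RPL22L1 has a single probe set.

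Among the other members the CL1-5 ratios were smaller still. The median was -0.02, with 39 members below 0 and 18 above it, where 5933 and 6756 of all 12821 measured genes were so. It was -0.01 after quantile normalization and 0.01 after centring each array on its median, which also moves the other genes. Relative to the median gene the members stood at -0.04 under all 3 scalings, a shift smaller than the spread of the members. The SD over the members was 0.05, against 0.19 over all measured genes and 0.09 over the 258 abundant other genes. It was 0.03 over the brighter 25 of the 50 members at 5000 or more, and 0.06 over the dimmer 25. RPL32 gave 17218 and 14873, a ratio of -0.21, and RPL34 gave 9681 and 8677, a ratio of -0.16. RPS6 followed with 15867 and 14504, or -0.13. At the positive end were RPLP2 with 0.14, which is a bound because its non-silencing value lay below the floor, RPS25 with 0.12 and RPL36 with 0.11. RPS25, a small-subunit protein needed for initiation at certain internal entry sites, gave 12089 and 13165.

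The median was -0.04 over the large and 0.00 over the small subunit. Of the large-subunit genes 29 of 36 were below 0, and of the small-subunit genes 10 of 21, a difference for which no test was possible. RPLP1 of the stalk gave 16848 and 16295, or -0.05, RPL11 gave -0.02, and the 5 exit-tunnel genes lay between -0.08 and 0.09. The 6 measured genes of the Diamond-Blackfan list had a median of -0.01. Genes with and without the pyrimidine tract at their start had close medians. The 34 measured genes with a tract had medians of -0.01 in CL1-0 and -0.02 in CL1-5, and the 16 without had -0.05 and -0.04.

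**Figure D2:**
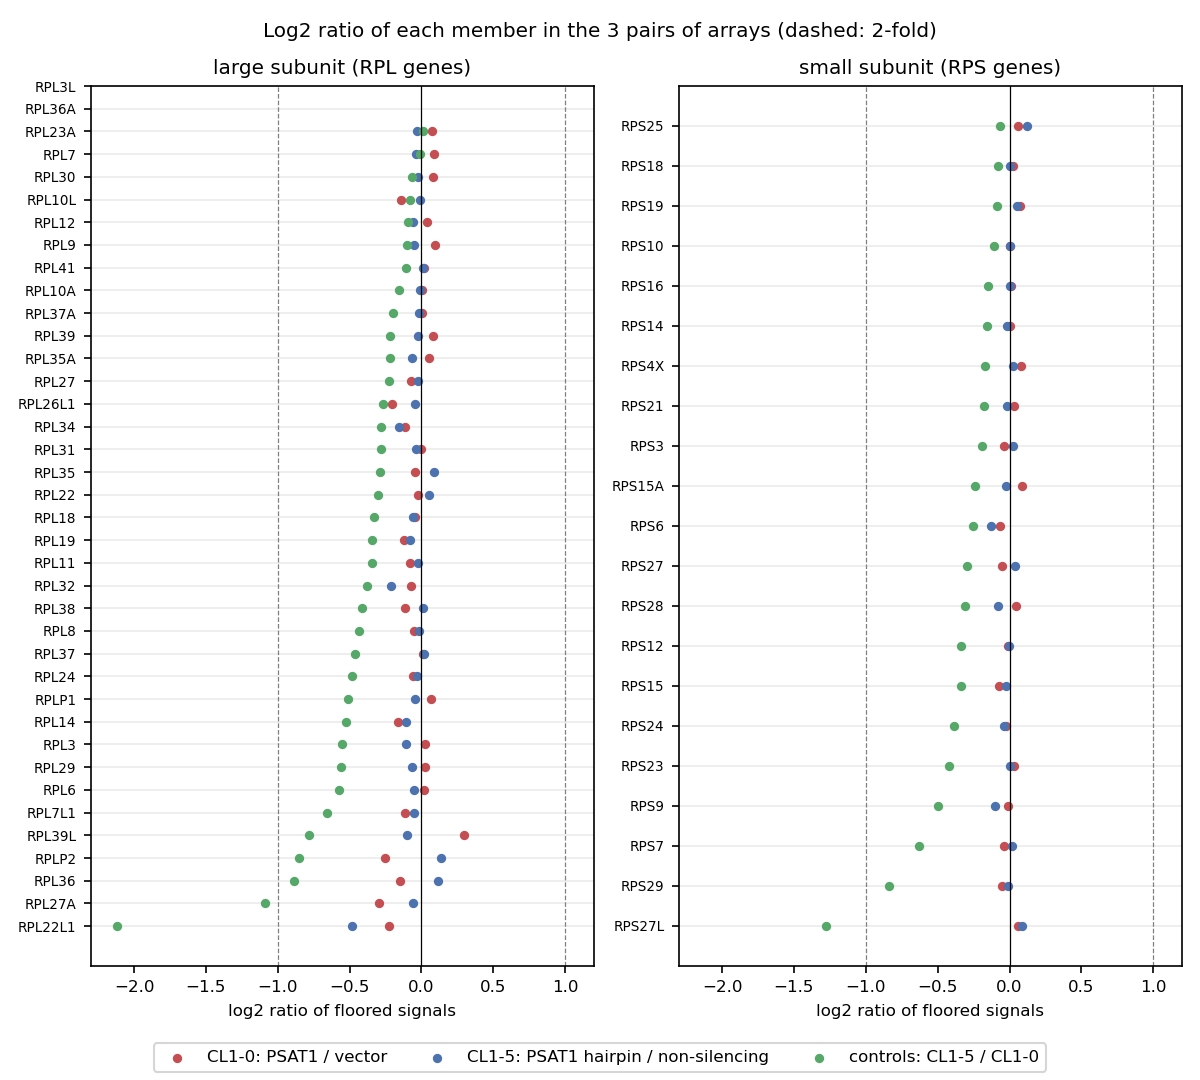
Log2 ratio of each ribosomal protein gene in the 3 pairs of arrays, 1 point a gene and pair, ordered by the difference between the lines. Points for the PSAT1 vector (-0.30 to 0.29) and the PSAT1 hairpin (-0.48 to 0.14) stay inside the dashed 2-fold lines, and those for the lines lie to the left as deposited, a side that flips for the family when arrays are centred. RPL3L and RPL36A have no point because they were at or below the floor.

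The control arrays of the lines differed in the family as deposited, but the size and even the direction of that difference depended on how the arrays were scaled. This comparison uses the control array of each manipulation, so its values are not independent of those above, and the control constructs differ too. As deposited, 56 of the 57 genes had a smaller signal in CL1-5, with a median log2 ratio of -0.30, while the median over all measured genes was -0.49. Of all 13720 measured genes 10537 had a negative ratio. After quantile normalization the members' median was -0.04 and that of all genes 0.00, and after centring the members' median was 0.32 and that of all genes 0.09. The ratios of members and groups between the lines given hereafter are as deposited unless stated, and their level depends on the scaling. Relative to the other genes, the family's shift was 0.19 above the median gene as deposited and 0.22 above it after centring, but differed from it by -0.04 after quantile normalization. In bulk RNA, fewer cells of a type and less RNA per cell cannot be told apart.

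By counts, 3 of the 57 genes were 2-fold lower in CL1-5 and none higher, against 24.8% of all measured genes lower and 5.25% higher. The 25% threshold was passed downwards by 27 and upwards by none, against 59.3% and 13% of all measured genes. After quantile normalization 8 passed it downwards and 1 upwards, against 30.4% and 29.6% of all measured genes. After centring 3 passed it downwards and 27 upwards, against 27.8% and 35.3%. The SD of the members' ratios was 0.22 as deposited, against 0.71 over all genes and 0.30 over the 258 abundant other genes, whose median was -0.42. Over the brighter 25 of the 50 members at 5000 or more the SD was 0.14, and over the dimmer 25 it was 0.21. The share of members past either threshold for a smaller signal was below that of all measured genes as deposited.

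The hybridization controls, which are added transcripts of bacteria and, for cre, of phage P1, differed between the lines too. Of these, bioB gave 671 and 350 on the vector and non-silencing arrays, a log2 ratio of -0.94, bioC gave 1793 and 1154, or -0.64, and bioD gave 7233 and 4171, or -0.79. At the bright end cre gave 15452 and 15032, a ratio of -0.04. The ratios of the controls were thus not ordered by signal below cre. The 1801 genes at or above the 95th percentile of signal had a median of -0.63, and all measured genes one of -0.49. The 258 other genes with a signal of at least 5000 on every array had one of -0.42. Among the 50 members with a signal of at least 5000 on every array, the brighter 25 had a median of -0.17 and the dimmer 25 one of -0.34. The part of signal in the members' difference between the lines was not tested.

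**Figure D3:**
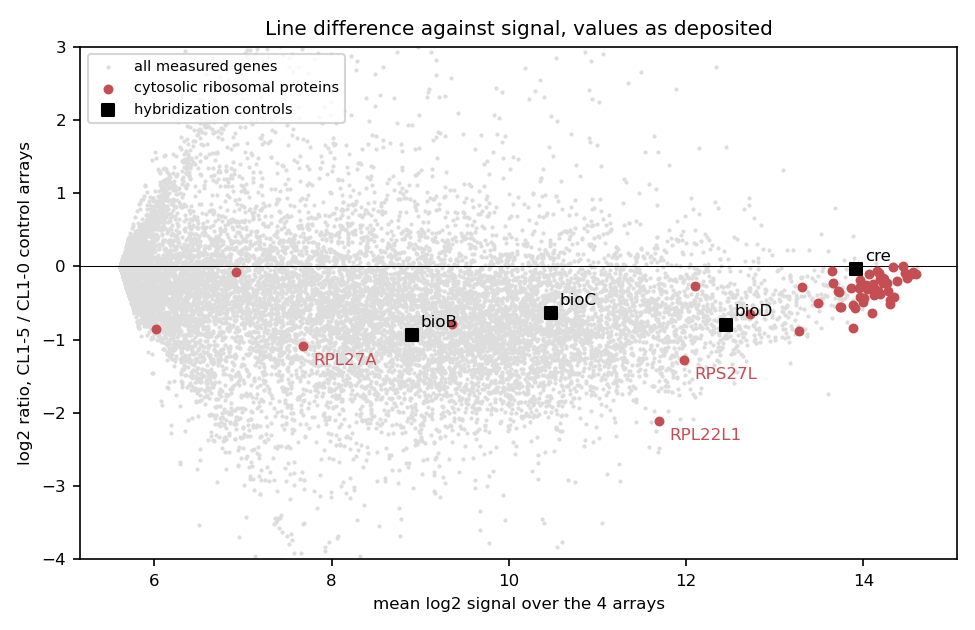
Log2 ratio of the CL1-5 to the CL1-0 control array, as deposited, against the mean log2 signal over the 4 arrays, with each point 1 gene and squares for the added hybridization controls (a few genes lie beyond the axis). The ribosomal protein genes cluster at the bright end near 14 around their median of -0.30, which turns to 0.32 when arrays are centred, and mostly below cre at -0.04, while RPL22L1 at -2.12 lies well below the members around it.

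RPL22L1 was the member with the largest difference between the lines. Its signals were 7766 and 6645 on the CL1-0 arrays with vector and PSAT1, and 1791 and 1284 on the CL1-5 arrays with the non-silencing and the PSAT1 hairpin. Both CL1-0 values were above both CL1-5 values, as they were at RPL22 as deposited, with 16363 and 16088 against 13300 and 13763. The arrays of a line carry different constructs and are not replicates. The log2 ratio between the control arrays was -2.12 as deposited, -1.48 after quantile normalization and -1.50 after centring, so the gene was more than 2-fold lower in CL1-5 under each scaling. RPL22, whose loss is known to raise RPL22L1, had a ratio of -0.30 as deposited, so that the ratio of RPL22L1 minus that of RPL22 was -1.82.

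RPS27L, a paralog of RPS27 that p53 can induce, was the next. It gave 6130 and 6398 in CL1-0 and 2527 and 2681 in CL1-5, with a log2 ratio of -1.28 between the control arrays. That ratio was -0.67 after quantile normalization and -0.66 after centring, so the 2-fold difference held as deposited but under neither of these scalings. RPS27 had -0.30, and the ratio of RPS27L minus that of RPS27 was -0.98. A second RPS27L probe set gave 543, 507, 102 and 108, a ratio of -2.41, and another, near the floor, gave -0.52. The probe sets of this gene thus differed in size but not in sign. Of other genes tied to p53, CDKN1A, the cell cycle inhibitor, gave 83.8 and 527 on the vector and non-silencing arrays, and MDM2, the ligase that degrades p53, gave 1968 and 454.

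The remaining paralogs were more mixed. RPL27A, which is no paralog but was also past 2-fold, gave 317, 258, 150 and 144, a ratio of -1.09 that shrank to -0.57 after quantile normalization and -0.47 after centring. RPL27A was read from its only single-symbol probe set, which is far dimmer than those of most members. RPL39L gave 829, 1018, 482 and 450, a ratio of -0.78 between the lines, and its ratio minus that of RPL39 was -0.56. RPL7L1, a relative of RPL7, gave 8745, 8087, 5556 and 5353, a ratio of -0.65 where RPL7 had -0.01. After quantile normalization RPL39L and RPL7L1 had ratios of -0.086 and -0.11, so these differences depended on the scaling. RPL26L1 gave 5014, 4357, 4169 and 4038, or -0.27. RPL10L, the testis copy of RPL10, gave 128, 116, 121 and 121 and so lay between 116 and 128 on all arrays. In each of the 4 pairs of paralog and parent that were measured, the paralog had the more negative ratio between the lines as deposited. The part of signal in this pattern was not tested.

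Within the core family, after RPL27A, the largest differences between the lines as deposited, with the smaller signal in CL1-5, were those of RPL36 with -0.89, RPLP2, at least 1.81-fold, and RPS29 with -0.84. RPL27A and RPLP2 were read from dim probe sets, with 317 and 88.6 on the vector array, unlike RPL36 and RPS29. RPL36 gave 13585 and 7346 on the control arrays, and RPS29, a zinc-binding small-subunit protein, gave 20457 and 11418. After quantile normalization RPL36 and RPS29 had -0.45 and -0.55, and after centring -0.27 and -0.23. At the other end RPL23A, at the mouth of the exit tunnel, had 0.01 with 21983 and 22173, and RPL7 had -0.01. The subunit medians were -0.34 for the large and -0.25 for the small subunit, an order that turned after quantile normalization. Genes with and without a pyrimidine tract had medians of -0.29 and -0.34, the exit-tunnel genes -0.28, the measured genes of the Diamond-Blackfan list -0.28, and RPL11 -0.34. RPLP1 gave 23994 and 16848, a ratio of -0.51.

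Probe sets of the same gene gave like ratios where their signals were at least 5000 on every array, and less alike ones when the others were included. The 59 genes had 61 further probe sets, in 34 genes. Where such a probe set had a signal of at least 5000 on every array, which was so for 18, its CL1-0 ratio lay between -0.12 and 0.12, close to the one used. Between bright probe sets of a gene the SD of the ratios was 0.028 in CL1-0, 0.028 in CL1-5 and 0.071 between the lines. With all probe sets above the floor it was 0.26, 0.14 and 0.51.

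The dimmer probe sets held the only 2-fold differences of the family within a line. With PSAT1 in CL1-0, 2 of the 55 further probe sets measured were 2-fold higher, or 3.64% against 2.54% of all single-symbol probe sets. The 25% threshold was passed upwards by 10, or 18.2% against 20.5%, so these shares were near those of all probe sets. It was passed downwards by 2, or 3.64% against 15.8%, at RPL14 with -0.38 and RPL37A with -0.35. At RPL37 one probe set gave 457 and 1054, a log2 ratio of 1.21, and 2 more gave 0.70 and 0.57, while the bright one gave 23515 and 23642, or 0.01. At RPL31 a probe set gave 721 and 1536, a ratio of 1.09, beside 0.00 and -0.08 at the others. An RPL22 probe set that was not dim gave 4082 and 6026, or 0.56, beside 0.15 or less at the other 4. In CL1-5 these RPL37, RPL31 and RPL22 probe sets had ratios of -0.15, -0.15 and 0.12 with the hairpin.

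One RPS24 probe set differed in the same sense in both lines. It gave 512 and 817 with the vector and PSAT1 in CL1-0, a ratio of 0.67, and 176 and 283 with the non-silencing and the PSAT1 hairpin in CL1-5, a ratio of 0.68. The bright RPS24 probe set had -0.02 and -0.04. In CL1-5, 4 of the 52 further probe sets measured passed the 25% threshold upwards, or 7.69% against 6.7% of all single-symbol probe sets. Downwards 2 passed it, or 3.85% against 9.84%, at RPS21 with -0.42 and RPL35A with -0.36. Which transcripts these further probe sets detect was not tested.

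**Figure D4:**
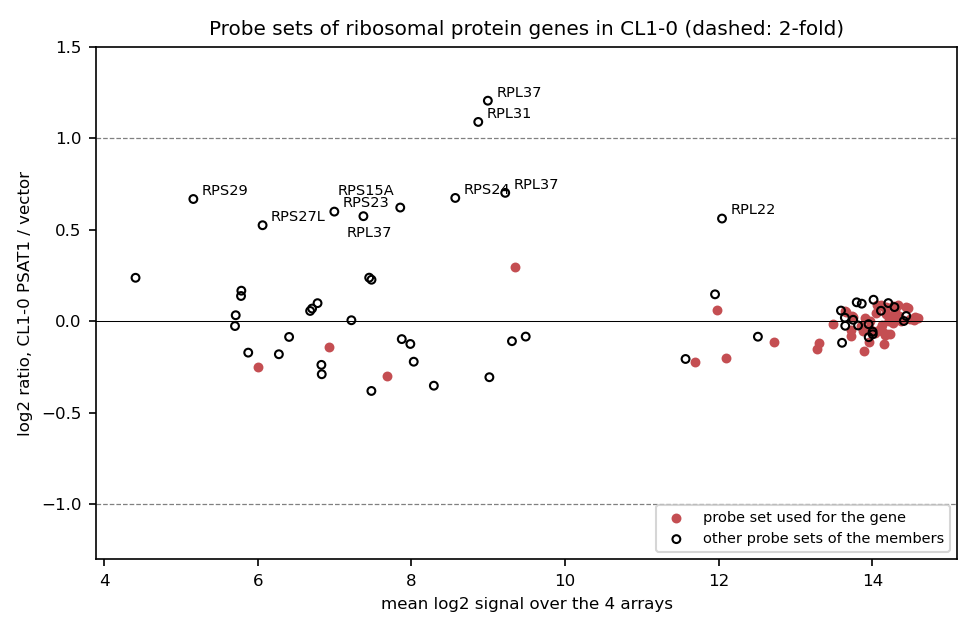
Log2 ratio of PSAT1 to vector in CL1-0 for each probe set of the ribosomal protein genes against its mean log2 signal over the 4 arrays, with filled points for the probe set used and open ones for the others. At the bright end all points lie near 0, and the differences past 2-fold, at RPL37 (1.21) and RPL31 (1.09), belong to dim probe sets.

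Genes that build or regulate ribosomes were described by lists of genes with known roles. The 26 genes of ribosome assembly, rRNA transcription and MYC had a median of -0.29 with PSAT1 in CL1-0. All 26 had negative ratios there, as had 6807 of all 13187 measured genes. Of the 26, 12 passed the 25% threshold downwards, or 46.2% against 14.9% of all measured genes. With the hairpin in CL1-5 the median of the 26 was 0.16, with 20 positive and 6 negative, MYC among them at -0.14. Positive ratios were found at 6756 of all 12821 measured genes. In CL1-5, 3 of the 26 passed the threshold upwards, or 11.5% against 7.3% of all measured genes. Under quantile normalization the medians were -0.27 and 0.15, and under centring -0.37 and 0.20, so the signs held. In CL1-0 TSR1, an assembly factor of the small subunit, gave 2913 and 1819, a ratio of -0.68. RRP9, a protein of the U3 particle that cuts pre-rRNA, gave 743 and 510, or -0.54. In CL1-5 NIP7, an assembly factor of the large subunit, gave 2311 and 3212, or 0.48, and RIOK2, a kinase of late small-subunit assembly, gave 0.37. None of the 26 reached 2-fold in either manipulation. Of all measured genes 2.56% were higher and 1.01% lower in CL1-0, and 0.398% and 0.421% in CL1-5.

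The 76 measured proteins of the mitochondrial ribosome, which translates the few mitochondrial mRNAs, lay between these groups. Their median was -0.22 with PSAT1 in CL1-0. There 67 were negative, as were 6807 of all 13187 measured genes. Past the 25% threshold downwards were 26, or 34.2% against 14.9% of all measured genes. With the hairpin in CL1-5 the median of the 76 was 0.09, with 55 positive, as were 6756 of all 12821 measured genes. The 4 past the threshold upwards were 5.26%, below the 7.3% of all measured genes. The signs were kept under quantile normalization, at -0.17 and 0.08, and under centring, at -0.29 and 0.12. Their RefSeq starts carried the tract in 8.11% of 74 genes. The assembly genes carried it in 7.69% of 26. Between the lines the medians as deposited were -0.87 for the mitochondrial and -1.04 for the assembly genes, against -0.30 for the cytosolic proteins. After quantile normalization they were -0.18, -0.36 and -0.04, and after centring -0.26, -0.43 and 0.32. The part of the signal scale in that order was not tested.

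**Figure D5:**
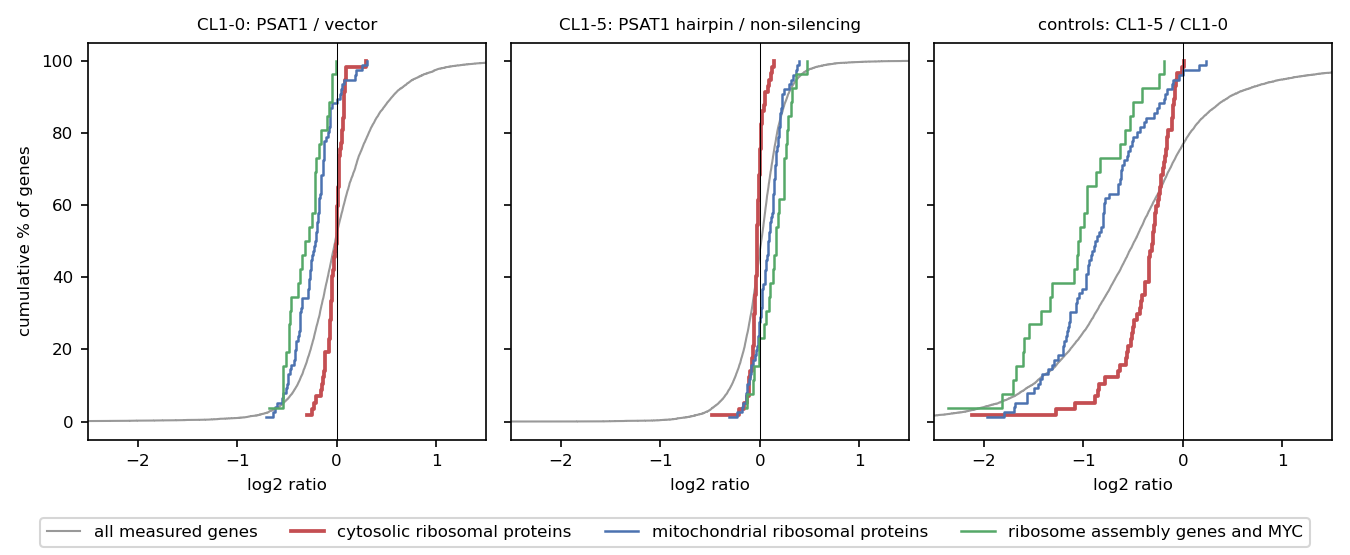
Cumulative percent of genes against the log2 ratio in each pair of arrays, for all measured genes, the cytosolic ribosomal proteins, the mitochondrial ribosomal proteins and the ribosome assembly genes with MYC (some genes lie beyond the axis). The cytosolic curve is steep at 0.00 in CL1-0 and -0.02 in CL1-5 (0.01 when centred), the assembly genes lie at -0.29 and 0.16, and between the lines the cytosolic median of -0.30 turns to 0.32 when arrays are centred.

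Other mRNAs known to carry a TOP tract had medians near 0 within the lines. The 13 of this list, among them PABPC1, the poly(A)-binding protein, and TPT1, had medians of 0.03 in CL1-0 and -0.01 in CL1-5. None of them passed the 25% threshold in either. Of all measured genes 20.2% passed it upwards and 14.9% downwards in CL1-0, and 7.3% and 8.22% in CL1-5. Between the lines the median of the 13 was -0.45 as deposited, but 0.03 after quantile normalization and 0.17 after centring. EIF3A, a scaffold of initiation, had -1.10 as deposited, and VIM, the intermediate filament vimentin, was the only one with a positive ratio, 0.41. The 5 measured genes of elongation, the kinase EEF2K included, had medians of 0.01 in CL1-0 and 0.06 in CL1-5. Between the lines their median was -0.63 as deposited, -0.19 after quantile normalization and -0.017 after centring. EEF1A1, which brings aminoacyl-tRNA to the ribosome, gave 25271, 25194, 25088 and 24232, while its paralog EEF1A2 gave 580, 583, 178 and 232.

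The initiation factors had medians of -0.17 over 20 measured genes in CL1-0, 0.07 over 19 in CL1-5 and, as deposited, -0.68 between the lines. The line median was -0.092 after quantile normalization and after centring. In CL1-0, 4 passed the 25% threshold downwards and 1 upwards, or 20% and 5% against 14.9% and 20.2% of all measured genes. EIF2S1, the subunit whose phosphorylation slows initiation, gave 7213 and 5528, a ratio of -0.38. Of the ribosomal proteins outside the naming rule, FAU, which yields RPS30, gave 14245, 14434, 13898 and 14528 and hardly differed. RPL36AL, a copy of RPL36A, gave 8969, 6951, 4687 and 4867, with ratios of -0.37 in CL1-0, 0.05 in CL1-5 and -0.94 between the lines. It passed the 25% threshold in CL1-0, which none of the 57 measured members did. RACK1 had no probe set with a single symbol.

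The regulators of TOP mRNAs, mTORC1 with its inputs and outputs, had medians of 0.02 in CL1-0 and 0.00 in CL1-5, with larger differences at single genes. Between the lines their median was -0.74 as deposited, -0.073 after quantile normalization and -0.12 after centring. With PSAT1 in CL1-0, 2 of the 16 were 2-fold higher, or 12.5% against 2.56% of all measured genes. DDIT4, a stress-induced inhibitor of mTORC1, gave 1458 and 5101, a 3.50-fold rise. SESN2, a leucine sensor that also restrains mTORC1, gave 337 and 693, a 2.06-fold rise. EIF4EBP2, a repressor of the cap-binding initiation factor EIF4E, gave 719 and 1397, a ratio of 0.96. RPS6KB1, the S6 kinase, gave 2425 and 1488, or -0.70. In CL1-5 none of the 16 reached 2-fold, where 0.398% of all measured genes were higher and 0.421% lower. DDIT4 and SESN2 had ratios of -0.16 and 0.01 there. The ribosomal protein mRNAs on the same CL1-0 arrays had a median of 0.00. The arrays measure mRNA and not its use, so translation of these mRNAs was not measured.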

How the data were processed

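The authors deposited 1 linear intensity for each probe set on each array, computed with MAS5, per the submitters' processing notes. Its version and scaling target are not given in the sources used here. Of 54675 probe sets, 62 were controls, 41097 had 1 symbol in the platform annotation, 1801 had several and named no gene, and 11777 were not listed. The symbols of 41043 were updated from a reference gene table. Probe sets of Y-linked and X-inactivation genes (59) were left out. The floor was the pooled 50th percentile of the 4 arrays. Genes above it on at least 1 array of a pair were measured there, and a gene's probe set was the one with the highest mean floored log2 signal. Ratios were computed with Python 3.11.15, numpy 2.4.6 and pandas 2.3.3, and the counting was tested on simulated data. The number of arrays limits the precision.

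Named were any member (per pair those past 2-fold, otherwise the 6 largest and 6 smallest ratios), all genes of the stalk, 5S particle, paralog and parent lists, PSAT1, up to 4 genes of each other list by size of ratio, and cell type markers. TPT1, PABPC1 and the probe sets at single genes were chosen after their values were seen. Members and lists were chosen with earlier results of these data known. Alternatives were quantile normalization, median centring, other floors, the mean over probe sets, no _x_at or _s_at probe sets and other member sets.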

Additional observations from a re-analysis of the deposited data

How the results depend on the processing

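With 1 array a group, leaving out a replicate was not possible. No paired analysis was possible because the labels give no replicate numbers and each group is 1 array. Within the lines, the members' medians stayed within 0.1 of the reported value under every alternative, and no gene passed 2-fold except 1 higher in CL1-0 without _x_at and _s_at probe sets. After quantile normalization 1 member passed the 25% threshold downwards in CL1-0. Between the lines the median was then -0.037, 8 members passed that threshold downwards and 1 upwards, 1 was 2-fold lower, and the large minus small subunit median was 0.028. After median centring 2 passed it downwards in CL1-0, and between the lines the median was 0.32, with 3 past it downwards and 27 upwards, and 1 lower by 2-fold. The medians of all genes and of other TOP mRNAs between the lines reversed too, to 0.00061 and 0.030 after quantile normalization and 0.093 and 0.17 after centring. With the floor at the 25th percentile 1 passed it upwards in CL1-0. With the mean over probe sets 3 passed it upwards in CL1-0 and 1 in CL1-5, and 5 were 2-fold lower between the lines. Without _x_at and _s_at probe sets 1 passed it downwards and 6 upwards in CL1-0, and 3 downwards and 3 upwards in CL1-5, the line median was -0.41, and large minus small was -0.18 in CL1-0 and 0.043 between the lines. With RPL36AL and FAU added as members 1 passed it downwards in CL1-0. Without the L and L1 paralogs 0 passed it downwards in CL1-5 and 1 was 2-fold lower between the lines. The following member sets were added after seeing the data. Over members at 5000 or more on every array, 0 passed it downwards in CL1-5 and 0 were 2-fold lower between the lines. Over the probe sets with several symbols the line median was -0.40. The causes of these differences were not tested. Of the 59 members 44 were read from probe sets of the _x_at or _s_at kind, which can also detect related transcripts, pseudogene copies included.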

Other observations

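The arrays also hold probe sets for the RNA of the ribosome, which are controls of the platform and were used in no comparison above. The 5′ probe set of 28S rRNA gave 5445 with the vector and 3546 with PSAT1 in CL1-0, and 8146 with the non-silencing and 5351 with the PSAT1 hairpin in CL1-5. The log2 ratios were -0.62 and -0.61, both below 2-fold. The middle probe set of 28S rRNA gave -0.45 and -0.44. The 5′ probe set of 18S rRNA gave 3721 and 2946 in CL1-0 and 9937 and 8140 in CL1-5, ratios of -0.34 and -0.29, and its 3′ probe set gave -0.56 and -0.22. In both lines the manipulated array thus had the smaller signal at the 4 rRNA probe sets read, which were picked from the platform's controls. Whether these signals follow the amount of rRNA in the cells was not tested. Between the control arrays the 5′ probe set of 18S rRNA was higher in CL1-5, by 1.42 on the log2 scale, while its 3′ probe set differed by 0.08.

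The RNA quality controls differed less. The ratio of 3′ to 5′ signal at ACTB was 1.18 and 1.22 on the CL1-0 arrays and 1.34 and 1.38 on the CL1-5 arrays, in the order given above, and at GAPDH it lay between 1.07 and 1.10 on all 4. The part of these values in the rRNA signals was not tested.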
